A study of Mus musculus with 2 samples.

Results

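Txnip, Arrdc4, Arrdc3, Foxo1, Foxo3, Ccng2, Klhl24, Pik3ip1 and Sesn1 are alpha-arrestin, FoxO and stress-response genes that are known for high levels in resting cells and low levels in growing ones. They are 9 of 28206 features counted in single mouse bone marrow cells. The genes were chosen by name with earlier results of the same data known, including their levels in cells with and without GFP transcripts, so the GFP comparison is given as a description only. Levels were read in 3402 kept cells, which are droplet barcodes with at least 500 unique molecular identifiers (UMIs, each standing for 1 captured transcript) and at most 20% mitochondrial UMIs.

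The cells came from lineage-depleted bone marrow and were made into libraries on the inDrops droplet platform. One source was Mds1-GFP/+ Flt3-Cre mice, from which live cells were sorted by GFP alone (DAPI-GFP+). Their GFP cassette is flanked by loxP sites, and Flt3-Cre removes it from cells that express Flt3 and from their descendants. The other source was wild-type mice, from which SLAM long-term hematopoietic stem cells (LT-HSCs) were sorted as DAPI-Lin-cKit+Sca+CD48-CD150+. Cells of both sources were mixed in 1 pool, and 2 aliquots of it were sequenced. Hence n = 1, the aliquots are technical, no test between cell sets was possible, and every interval below is a 95% interval that covers counting error only. A cell without a GFP UMI can come from either source, since transcripts of 1 gene are often missed at this depth. Mouse line and sort go together, so a difference between cells with and without GFP cannot be assigned to either. Age, sex and the number of mice are not given in the labels.

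The kept cells numbered 1574 in aliquot 1, with a median of 946.5 UMIs, and 1828 in aliquot 2, with a median of 2071.5. Detection of LT-HSC markers varied with the gene: Hlf was found in 53.3% of kept cells, Procr in 15.9%, Fgd5 in 3.12% and Slamf1, which encodes the sorted CD150, in 2.70%. Flt3 and Cd48, which are low in LT-HSCs, were in 4.97% and 1.88%. A group of 33 cells carried many granulocyte transcripts. Some markers of other lineages were common: Car2 of the erythroid list was in 74.5% of cells and the myeloid gene Lyz2 in 32.6%. Prtn3 of the granulocyte list was in 24.4% and Itga2b of the megakaryocyte list in 13.4%. Others were rare, with the globin gene Hbb-bt in 4.47% of cells. Hba-a2 had 8 UMIs and the T cell gene Cd3e 3, and Hba-a1 and Cd3g were at 0. Of all barcodes, 461 appeared in both aliquots, and 55 of these were kept in both. Free RNA was gauged with Camp, a granulocyte gene: it was found in 18 of 3350 cells with fewer than 5 UMIs of other granulocyte markers (0.537%, median 1403 UMIs), and in 17 of 52 cells with 5 or more (32.7%, median 2240.5 UMIs).

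Txnip, thioredoxin-interacting protein, binds thioredoxin and lowers glucose uptake. Txnip and its relative Arrdc4 are targets of MondoA, a glucose-sensing factor that binds carbohydrate response elements (ChoREs) together with its partner Mlx. Foxo1 and Foxo3 are transcription factors that the PI3K and AKT pathway keeps out of the nucleus while growth factors signal; when signalling stops they activate genes for cell cycle arrest, autophagy and defence against oxidants. In mice, loss of FoxO factors from the blood system drives stem cells out of quiescence.

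Promoter windows from RefSeq (GRCm38.p6, 250 bases before to 50 bases after the gene start) were found for 8 of the 9 genes, 11 windows in all. The windows of Txnip and Arrdc4 are printed 5′ to 3′ along the gene's own strand because these genes are the MondoA targets of the set. Capitals mark matches on either strand to CACGNG, which is 1 of the paired boxes of a ChoRE, and to GTAAACA, the core FoxO motif; where a pair of CACGNG boxes has the spacing of a full ChoRE, the 5 bases between them are in capitals too. The Txnip window is chr3:96557707-96558006 on the plus strand, and the Arrdc4 window is chr7:68749189-68749488 on the minus strand.
Txnip: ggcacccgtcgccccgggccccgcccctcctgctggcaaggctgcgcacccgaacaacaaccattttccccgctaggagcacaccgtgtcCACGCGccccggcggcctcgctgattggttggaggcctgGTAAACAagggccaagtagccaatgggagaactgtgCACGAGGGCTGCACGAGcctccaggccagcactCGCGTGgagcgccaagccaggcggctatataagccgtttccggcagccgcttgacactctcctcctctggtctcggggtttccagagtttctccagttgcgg
Arrdc4: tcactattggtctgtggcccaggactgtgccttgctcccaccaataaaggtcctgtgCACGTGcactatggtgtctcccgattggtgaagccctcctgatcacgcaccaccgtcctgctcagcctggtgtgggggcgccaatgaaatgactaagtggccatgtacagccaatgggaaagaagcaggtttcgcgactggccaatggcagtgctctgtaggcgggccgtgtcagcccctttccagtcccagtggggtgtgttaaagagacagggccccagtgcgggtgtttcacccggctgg

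The Txnip window held 4 matches to CACGNG. A pair of them formed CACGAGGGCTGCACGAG, which begins at base -85 and has the full spacing of CACGNG, any 5 bases and CACGNG again; they are counted among the 4. That spaced pair was present in 16 of 32851 promoter windows of the same length (0.0487%), whereas CACGNG alone was present in 27.5%. GTAAACA lay at base -121 of the Txnip window and was present in 3.65% of all windows. Arrdc4 had 1 palindromic match, CACGTG at base -193, and no match to GTAAACA. Elsewhere in the set, Sesn1 had the reverse complement of GTAAACA at base 22 after its start. That match was in the Sesn1 window from base 41810324 of chromosome 10, and the window from base 41887189 had 0. Ccng2 had CAAAACA, a second FoxO motif found in 6.28% of windows, at base -16. Matches to CACGNG were not limited to Txnip and Arrdc4. Without the spaced pair, they also lay at base -49 of Ccng2, base -108 of Pik3ip1, and bases -144 and 1 of Foxo3. The windows of Foxo1, Arrdc3 and Sesn1 had 0. Matches describe the letters of the windows and show no binding.

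Txnip was the most abundant of the genes by far. Its level, as counts scaled to 1e+06 UMIs (CPM) and summed over cells, was 1808 CPM in aliquot 1 and 1447 CPM in aliquot 2, and 1552 CPM in both together (1519 to 1584). At least 1 Txnip UMI was found in 2654 of 3402 cells, 78.0% (76.6 to 79.4%, Clopper-Pearson), and a single cell held up to 20. After each cell was thinned at random to 500 UMIs, the share was 51.4%. The gene spans chromosome 3 bases 96557957 to 96561883 on GRCm38 and, like the other 8, is annotated as protein-coding.

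Each of the other genes lay far lower. Pik3ip1, a membrane inhibitor of PI3K, stood at 168 CPM in aliquot 1 and 171 CPM in aliquot 2, and was found in 20.1% of cells. Sesn1, a sestrin that restrains mTOR signalling, stood at 118 CPM in aliquot 1 and 132 CPM in aliquot 2. Ccng2, an atypical cyclin that slows the cell cycle, had 106 and 99.3 CPM in the same order, and Foxo3 had 118 and 91.9 CPM.
Foxo1 reached 62.5 CPM over both aliquots (56.1 to 69.3) and Arrdc4 60.3 CPM (54.1 to 67.1). Klhl24, an adaptor of a cullin ubiquitin ligase, reached 48.5 CPM (43.0 to 54.6), and Arrdc3, an alpha-arrestin that guides receptor trafficking, 46.2 CPM (40.8 to 52.2). In this order by captured molecules, which were not divided by transcript length, Ccng2 and Foxo3 could not be separated at this depth, nor could Foxo1 and Arrdc4, or Klhl24 and Arrdc3.

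Most cells showed few of these transcripts at once. Of the 9 genes, 0 were found in 390 cells, 1 in 1338 cells, 2 in 1032 cells and 6, the most, in 4 cells. The median depth went up alongside, 1107.5 UMIs in cells with 0 of the genes and 2641 UMIs in cells with 6. The shares of 5.29% to 20.1% for the genes other than Txnip are therefore floors set by depth, not shares of expressing cells; thinned to 500 UMIs they were 2.15% to 9.26%.

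Ccng2 was the most unevenly spread of the genes. It was found in 0.648 times the number of cells that an equal share of UMIs in every cell would give, with up to 11 UMIs in 1 cell. The same ratio was 0.901 for Txnip and lay between 0.721 and 0.851 for the others. In aliquot 2, whose cells are deeper, Ccng2 stood at 0.560, and in aliquot 1 at 0.838.

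The level of Txnip was lowest in the deepest cells. It was 2433 CPM in cells of 500 to under 1000 UMIs, 1686 CPM at 1000 to under 2000, 1360 CPM at 2000 to under 4000 and 511 CPM in the 101 cells of 4000 UMIs or more. Pik3ip1 followed the same order with 219, 204, 150 and 53.8 CPM, whereas Foxo3 was at 155, 91.2, 89.4 and 86.8 CPM. Most of the shallowest cells, 887 of 1092, were of aliquot 1, and the aliquots differed. In aliquot 1 Txnip was at 2558, 1382 and 511 CPM in the 3 ranges below 4000 UMIs. In aliquot 2 it was at 1863, 1936, 1404 and 511 CPM, with Pik3ip1 at 199, 257, 156 and 53.8 CPM and Foxo3 at 86.2, 99.9, 89.8 and 86.8 CPM, so there the first range was not above the second. Depth also differed between the cell sets compared below, so values within depth ranges are given with the phase, Procr and GFP comparisons. Just inside the depth limit, kept barcodes of 500 to under 600 UMIs had 2516 CPM of Txnip in aliquot 1 and 2208 CPM in aliquot 2. Just outside it, barcodes of 400 to under 500 UMIs had 2477 and 1308 CPM, so in aliquot 2 the levels on either side of the limit differed. At the mitochondrial limit the numbers were small, 1432 CPM in 6 kept barcodes of 15 to 20% and 88.6 CPM in the 35 barcodes over 20%.

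Cells were next sorted into 7 disjoint classes by marker UMIs after thinning, in the order granulocyte markers, Gata1 or Klf1 (erythroid factors), G2/M genes, S phase genes, Flt3 or Cd48 (markers of multipotent progenitors), Procr (the protein C receptor, a marker of LT-HSCs), and the remaining cells. Txnip was highest in the Procr class, at 3182 CPM in aliquot 1 and 2299 CPM in aliquot 2. It stood at 2258 and 1779 CPM in the remaining cells and at 2130 and 1500 CPM in the Flt3 or Cd48 class. Lower values were seen in the S phase class, 1393 and 980 CPM, and the G2/M class, 828 and 784 CPM. Both classes with lineage markers were low, with 669 and 827 CPM for Gata1 or Klf1 cells and 325 and 415 CPM for granulocyte marker cells. Within each aliquot the interval of the Gata1 or Klf1 class overlapped those of the granulocyte marker and G2/M classes. The Flt3 or Cd48 class and the remaining cells overlapped too, whereas the Procr class and the remaining cells did not. The interval of the S phase class overlapped that of the Flt3 or Cd48 class in aliquot 1 and that of the Gata1 or Klf1 class in aliquot 2. In aliquot 1 the interval of the Procr class (2811 to 3588) also overlapped that of the Flt3 or Cd48 class (1507 to 2923). Fewer transcripts per cell and more RNA from other genes cannot be told apart in such relative levels.

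**Figure D1:**
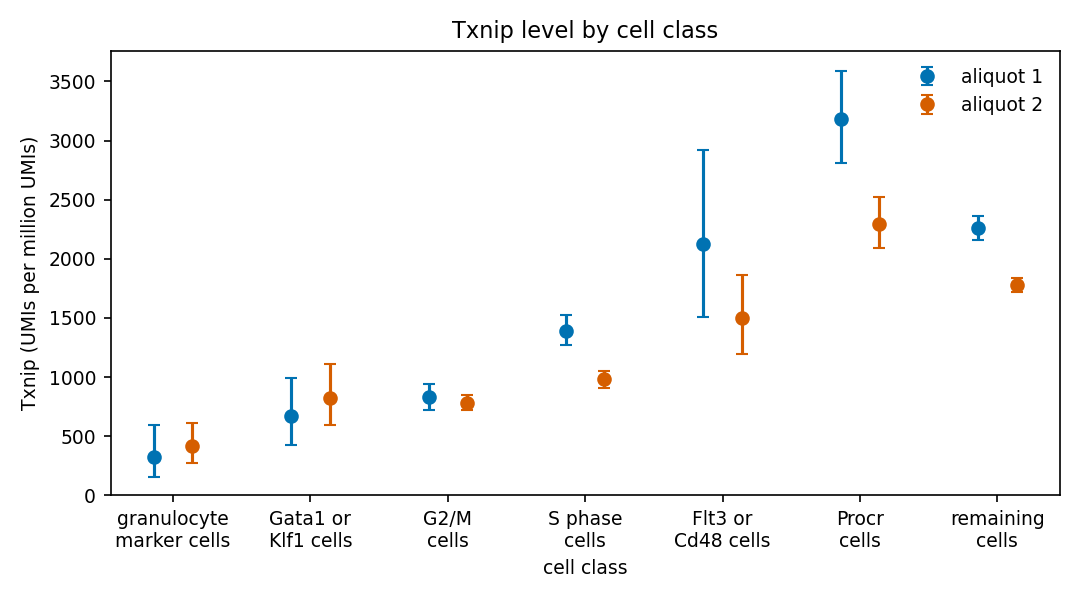
Txnip level in CPM (vertical axis, from 0) in the 7 cell classes (horizontal axis), with 1 point per aliquot and bars for the exact Poisson 95% interval. In both aliquots the Procr class is highest, at 3182 and 2299 CPM, and the granulocyte marker class lowest, at 325 and 415 CPM.

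Over both aliquots Pik3ip1 had the same extremes as Txnip, at 259 CPM in the Procr class and 217 CPM in the remaining cells, against 118 CPM in the S phase class, 83.2 CPM in the G2/M class, 34.1 CPM in Gata1 or Klf1 cells and 32.1 CPM in granulocyte marker cells. Each of the last 2 values rests on 3 UMIs. Single aliquots differed: in aliquot 2 the Procr class was at 209 CPM, below the remaining cells at 222 CPM, and in aliquot 1 Gata1 or Klf1 cells were lowest, at 27.9 CPM from 1 UMI. Foxo1 had 120 CPM in the Procr class, 71.9 CPM in the remaining cells and 34.3 CPM in the G2/M class, and 0 UMIs in the 33 granulocyte marker cells, which allows up to 39.5 CPM. Sesn1 ranged from 215 CPM in the Procr class to 10.7 CPM, 1 UMI, in granulocyte marker cells. Ccng2 had another order: 182 CPM in granulocyte marker cells and 164 CPM in the G2/M class, against 103 CPM in the remaining cells, 94.7 CPM in the Procr class and 40.8 CPM in the S phase class.

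Across the 7 classes in each aliquot, 14 points in all, the genes whose level on the log2(CPM + 10) scale was most like that of Txnip were mt-Co2 (Pearson's r = 0.962), a mitochondrial subunit of cytochrome oxidase, and Glul (0.951), glutamine synthetase. Next came Pnrc1 (0.933), Sult1a1 (0.933), Eef2 (0.932), Igtp (0.923), 1500012F01Rik (0.922) and St3gal1 (0.922). Among 3473 genes with at least 100 UMIs in each aliquot, Pik3ip1 ranked 16 (0.905), Foxo3 76 (0.839), Sesn1 96 (0.829), Arrdc4 986 (0.458) and Ccng2 2645 (-0.24). Arrdc3, Foxo1 and Klhl24 had too few UMIs to be ranked. The points share 2 libraries and classes that differ in depth and in cell cycle genes, so these correlations describe the classes and carry no test.

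Do the genes differ between cycling and other cells? S phase cells were taken as those with at least 2 UMIs of 24 S phase genes and none of 30 G2/M genes after thinning, 642 cells; G2/M cells as those with at least 2 UMIs of the G2/M genes, 469 cells; and 1208 cells had neither. A ratio is called here when it is at least 1.5-fold and rests on at least 10 UMIs, observed or expected.

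All 9 genes were below 1 in S phase cells over cells of neither phase, and 5 of the 9 were called lower, against a background of 14.8% of 10082 measured genes called lower and 52% below 1. Txnip was at 1367 CPM in aliquot 1 and 957 CPM in aliquot 2 in S phase cells, against 2692 and 2094 CPM in cells of neither phase. Each aliquot thus showed the lower level in S phase cells, and the ratio over both was 0.481 (0.451 to 0.513). Pik3ip1 was at 118 and 113 CPM in S phase cells, against 236 and 268 CPM in the others, a ratio of 0.443 (0.361 to 0.539).
Arrdc3 had the lowest ratio of the set, 0.344 (0.213 to 0.535) from 25 UMIs in S phase cells, and Ccng2 was close, 0.373 (0.264 to 0.518) from 46 UMIs. Over 20 random thinning draws their medians were 0.461 and 0.436, so which was lowest depended on the draw. Foxo1 stood at 0.621 (0.452 to 0.844), with 0.922 in aliquot 1 and 0.552 in aliquot 2. Arrdc4, at 0.681 (0.499 to 0.921), just missed the 1.5-fold limit in the draw used here. That was its highest ratio over the 20 draws, whose median was 0.527. Foxo3 was likewise at its highest, with a median of 0.664, so the number of genes called depends on the draw. No gene was above 1 in any draw. In the draw used here the intervals of Foxo3 (0.786), Sesn1 (0.825) and Klhl24 (0.955) included 1. Sesn1 and Klhl24 were above 1 in aliquot 1, at 1.12 and 1.06. Their medians over the 20 draws were lower than in the draw used here, at 0.738 and 0.806.

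The G2/M cells had lower Txnip still. Its level was 776 CPM in aliquot 1 and 778 CPM in aliquot 2, against 2692 and 2094 CPM in cells of neither phase. The aliquots did not overlap between the sets, and the ratio was 0.344 (0.318 to 0.371). Of the 9 genes 8 were below 1 and 5 were called lower, where 19.7% of 9905 measured genes were called lower and 53.1% were below 1. Pik3ip1 had the lowest ratio, 0.311 (0.243 to 0.394), with 80.1 and 80.6 CPM in G2/M cells, against 236 and 268 CPM. Foxo1 was at 0.401 (0.269 to 0.584), Arrdc4 at 0.448 (0.305 to 0.645) and Arrdc3 at 0.625 (0.426 to 0.903). Over 20 random thinning draws Arrdc3 lay between 0.530 and 1.07, with a median of 0.732 that did not meet the 1.5-fold limit. Its call thus depends on the draw. Pik3ip1 and Foxo3 (0.818) were at the highest of their draws, with medians of 0.262 and 0.677. Foxo1 again differed between aliquots, 0.795 in aliquot 1 and 0.306 in aliquot 2. Sesn1 was at 0.703 (0.558 to 0.882). The intervals of Klhl24 (0.680, 0.448 to 1.01) and Foxo3 (0.630 to 1.06) included 1.

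Ccng2 went against the name quiescence gene in G2/M cells. It had 170 CPM in aliquot 1 and 168 CPM in aliquot 2, against 130 and 99.4 CPM in cells of neither phase, a ratio of 1.56 (1.26 to 1.93), beside 16.3% of measured genes called higher. Against S phase cells, chosen as a second comparison after the values were seen, G2/M cells had 4.19 times as much Ccng2 (3.01 to 5.94), with 3.65 in aliquot 1 and 4.51 in aliquot 2. Hence Ccng2 was low in S phase and high in G2/M, while Txnip in G2/M cells was at 0.715 times its S phase level (0.653 to 0.781). Granulocyte marker transcripts were denser in the G2/M cells, 8006 CPM, than in cells of neither phase, 1513 CPM; without granulocyte marker cells the ratio of Ccng2 between G2/M and S phase cells was 4.02.

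Depth went with phase: the median was 1415 UMIs in S phase cells and 1830 in G2/M cells, against 1197 in cells of neither phase. Within depth ranges Txnip kept the same order. In G2/M cells it was 1407 CPM at 500 to under 1000 UMIs, 985 CPM at 1000 to under 2000 and 647 CPM at 2000 or more, and in S phase cells 1775, 1275 and 847 CPM, against 2839, 2249 and 1971 CPM in cells of neither phase.
The ratios within these ranges were 0.496, 0.438 and 0.328 for G2/M cells and 0.625, 0.567 and 0.430 for S phase cells, so Txnip was lower in both sets at each depth, with lower ratios in deeper cells. Pik3ip1 gave 0.450, 0.432 and 0.249 in G2/M cells and 0.848 (0.533 to 1.31), 0.492 and 0.335 in S phase cells. Foxo1 gave 0.838, 0.815 and 0.456 in S phase cells. The S phase calls were thus not met in the shallowest range for Pik3ip1, nor in the 2 shallower ranges for Foxo1. At 500 to under 1000 UMIs, 4 genes were above 1 in S phase cells: Foxo3 at 1.27, Klhl24 at 1.18, Arrdc4 at 1.17 and Sesn1 at 1.01, each with an interval that included 1. Ccng2 in G2/M cells was at 0.911 from 6 UMIs in the shallowest range, and at 2.16 and 1.42 in the deeper ones.
When cells of neither phase were weighted to the depth of the G2/M cells, Sesn1 moved to 1.21 and Arrdc3 to 1.23, so the direction of these genes depends on the treatment of depth. In other markers, the LT-HSC list summed to 3345 CPM in S phase cells and 2831 CPM in G2/M cells, against 4921 CPM. That sum also holds Flt3 and Cd48, which are low in LT-HSCs. Immediate early genes summed to 2300 and 1805 CPM, against 4106 CPM. The part of both lists in the ratios was not tested.

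**Figure D2:**
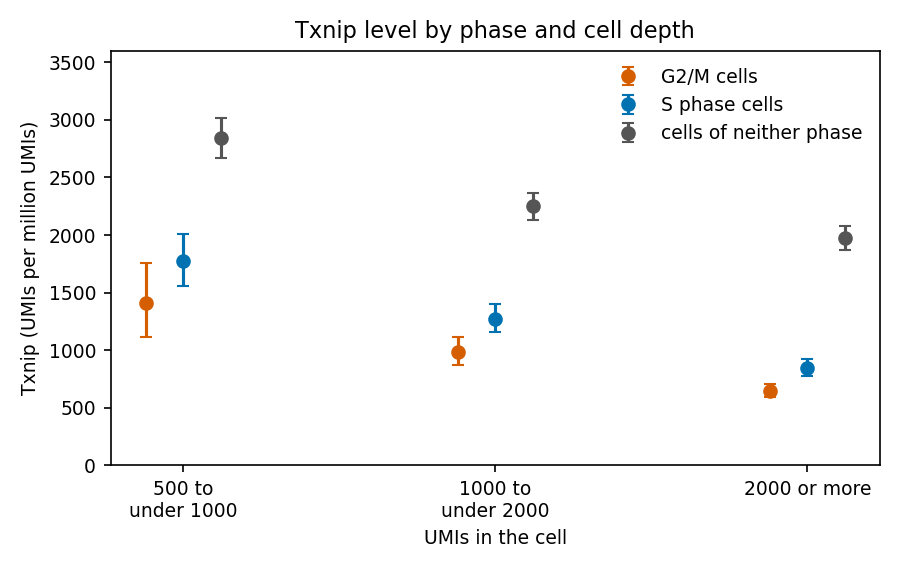
Txnip level in CPM (vertical axis, from 0) in G2/M cells, S phase cells and cells of neither phase, for 3 ranges of UMIs in the cell (horizontal axis), with exact Poisson 95% intervals. Cells of neither phase lie highest in each range, at 2839, 2249 and 1971 CPM.

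Procr UMIs gave another split of the cells, which was not separate from phase. Procr was at 69.1 CPM in S phase cells and 69.8 CPM in G2/M cells, against 223 CPM in cells of neither phase. A Procr UMI was found after thinning in 248 cells, with a median of 1204 UMIs, and not in 3154 cells, with a median of 1427.5. Txnip was at 2831 CPM in aliquot 1 and 2066 CPM in aliquot 2 in cells with Procr, against 1735 and 1406 CPM in cells without. Both aliquots were higher with Procr, and the ratio was 1.53 (1.42 to 1.64). Of the 9 genes 7 were above 1 and 4 were called higher, beside 11.2% of 6921 measured genes called higher and 50.9% above 1.

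Besides Txnip, those called were Foxo1 at 1.66 (1.14 to 2.34), Sesn1 at 1.61 (1.25 to 2.06) and Arrdc4 at 1.61 (1.10 to 2.30). Pik3ip1 was at 1.40 (1.10 to 1.75), with 313 and 197 CPM in cells with Procr, against 157 and 169 CPM in cells without. Intervals of the other 4 genes included 1: Arrdc3 at 1.27, Foxo3 at 1.06, Klhl24 at 0.903 and Ccng2 at 0.863. At this depth the cells in which Procr is found depend on which UMIs thinning leaves. Over 20 draws Txnip lay between 1.51 and 1.72, Pik3ip1 between 1.32 and 1.98 and Foxo1 between 1.01 and 1.94, while Arrdc4 was above 1 in 19 draws, Sesn1 in 19, Foxo3 in 18, Klhl24 in 14, Arrdc3 in 13 and Ccng2 in 11. Within the 3 depth ranges Txnip was at 1.21, 1.45 and 1.63, Sesn1 at 2.13, 1.29 and 1.53 and Pik3ip1 at 1.82, 1.08 and 1.29. Foxo1 was at 2.24, 1.69 and 0.989, and Arrdc4 at 1.62, 1.70 and 1.33. The 1.5-fold limit was thus not met by Txnip in the 2 shallower ranges, by Sesn1 in the middle one, or by Foxo1 and Arrdc4 in the deepest. Cells with Procr also carried fewer cycling transcripts, with 1984 CPM of S phase genes, against 3527 CPM, and among cells with no S phase or G2/M UMI the ratio of Txnip was 1.28.

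**Figure D3:**
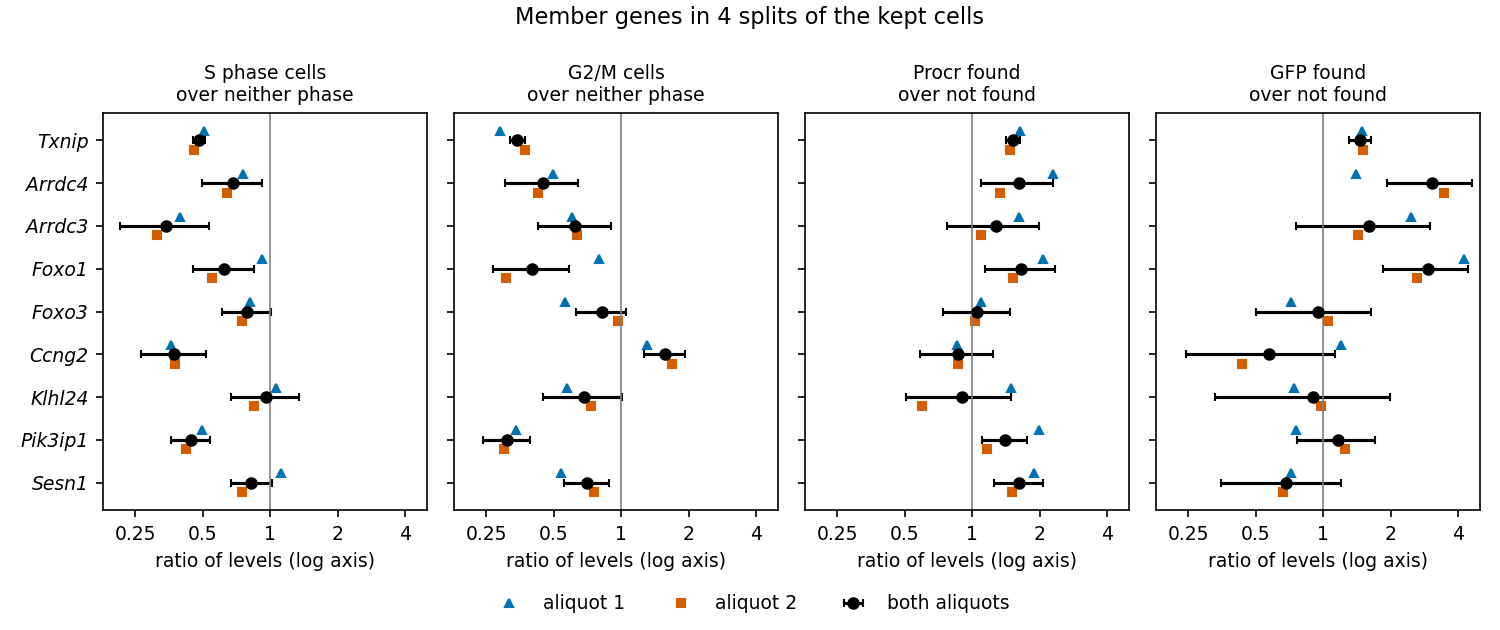
Ratio of levels for each of the 9 genes (rows) in 4 panels: S phase cells over cells of neither phase, G2/M cells over cells of neither phase, cells with Procr over cells without, and cells with GFP over cells without; the horizontal axis is a log axis. Black points with 95% intervals are both aliquots, triangles aliquot 1 and squares aliquot 2; Txnip lies at 0.481, 0.344, 1.53 and 1.46 in turn, and Ccng2 at 0.373, 1.56, 0.863 and 0.571.

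Grouping cells by their own Txnip UMIs after thinning gave the same picture from the other side. There were 1653 cells with 0, 919 with 1, 492 with 2 and 338 with 3 or more, and Procr was at 98.9, 176, 224 and 260 CPM in these groups. Hlf, a transcription factor of stem cells, was at 559, 849, 1062 and 1035 CPM. The proliferation gene Mki67 ran the other way, at 211, 107, 39.9 and 29.7 CPM.
Among the set, Pik3ip1 was at 130, 203, 225 and 256 CPM, and Arrdc4 at 43.5, 75.9, 82.6 and 93.6 CPM. Klhl24 was at 41.9, 48.5, 58.4 and 79.9 CPM, Foxo1 at 51.5, 70.3, 82.6 and 82.2 CPM, and Arrdc3 at 36.7, 59.8, 52.7 and 59.4 CPM. Foxo3 had no such order, at 92.1, 117, 85.4 and 119 CPM, nor had Sesn1, at 118, 148, 111 and 160 CPM. Ccng2 stayed near 100 CPM, at 99.2, 101, 112 and 100.5 CPM. Median depth was 1642, 1271, 1154 and 1041.5 UMIs in the same groups, and its part in these orders was not tested.

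**Figure D4:**
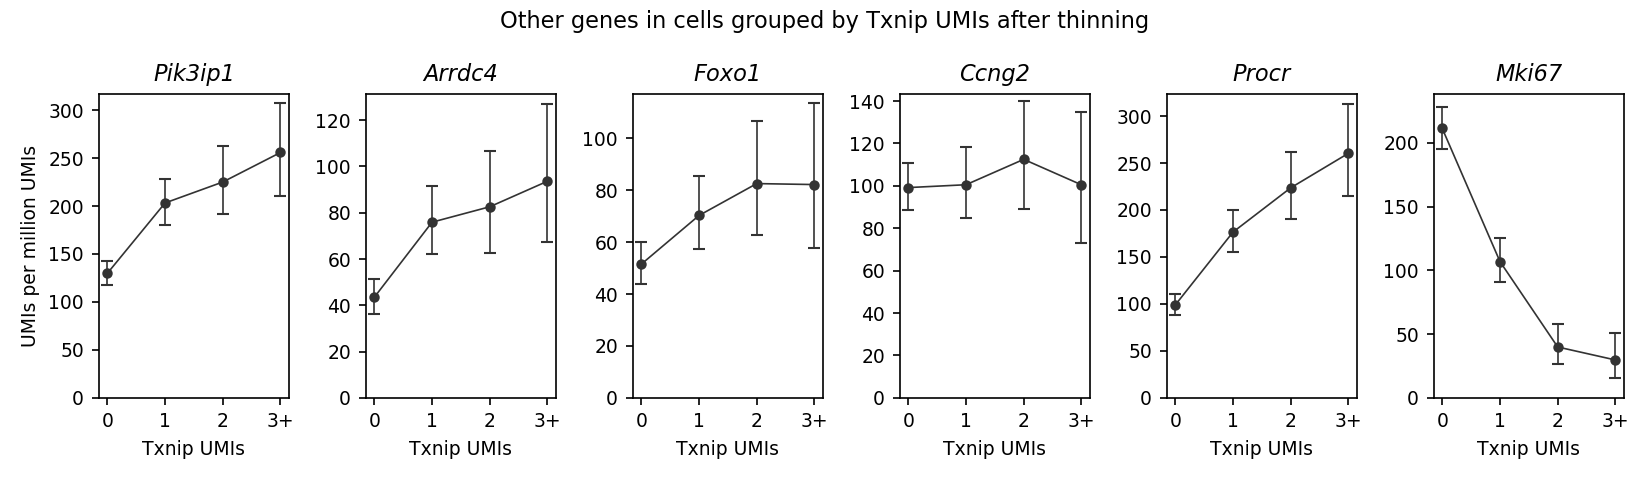
Levels of Pik3ip1, Arrdc4, Foxo1, Ccng2, Procr and Mki67 in CPM (vertical axes, from 0) in cells with 0, 1, 2 and 3 or more Txnip UMIs after thinning (horizontal axes), with exact Poisson 95% intervals. Pik3ip1 is at 130 CPM with 0 and 256 CPM with 3 or more, and Mki67 at 211 and 29.7 CPM.

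Co-detection in single cells was read next, on a scale that cannot be set beside ratios of summed levels. For each pair of genes, the number of cells with both was divided by the number expected if they were found independently within 10 depth bins per aliquot. Of 36 pairs 25 were above 1, the median was 1.04 and 3 had an interval above 1. For Txnip with genes outside the set, 51.2% of 12480 partners were above 1 and 0.353% reached 1.2; for the other 8 genes, 49.5% of partners were above 1 and 12.6% reached 1.2. Among the 36 pairs, 7 reached 1.2, all of them pairs without Txnip.

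Txnip and Arrdc4 were found together in 224 cells, where 209 were expected, a ratio of 1.07 (0.937 to 1.22) that lay at percentile 89.8 of all partners of Txnip. Every pair with Txnip lay between 1.01 and 1.07, and all 8 intervals included 1. Since Txnip is found in most cells, its ratio has little room above 1. With cells thinned to 500 UMIs, Txnip with Arrdc4 was at 1.31 (1.02 to 1.66) and Txnip with Foxo1 at 1.30 (1.01 to 1.64), and the intervals of the other 6 pairs included 1. The thinned cells of an aliquot were taken without depth bins, so cells of unlike original depth were mixed. No ratio over other genes was taken for thinned cells, and the part of original depth was not tested.
The highest ratio was that of Arrdc3 with Ccng2, 32 cells where 19.7 were expected (1.63, 1.11 to 2.30). Next came Arrdc3 with Pik3ip1, 55 cells against 38.3 expected (1.44, 1.08 to 1.87). Pik3ip1 with Sesn1 had 132 cells against 109 expected (1.21, 1.01 to 1.43). Arrdc3 with Ccng2 differed between the aliquots, 2.43 in aliquot 1 and 1.22 in aliquot 2. Among cells with no S phase or G2/M UMI the 3 pairs were at 1.11 (0.479 to 2.18), 1.34 (0.886 to 1.96) and 1.00 (0.740 to 1.33), so none had an interval above 1 there. Foxo1 with Foxo3 was found in 31 cells where 37.0 were expected (0.839, 0.570 to 1.19).

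**Figure D5:**
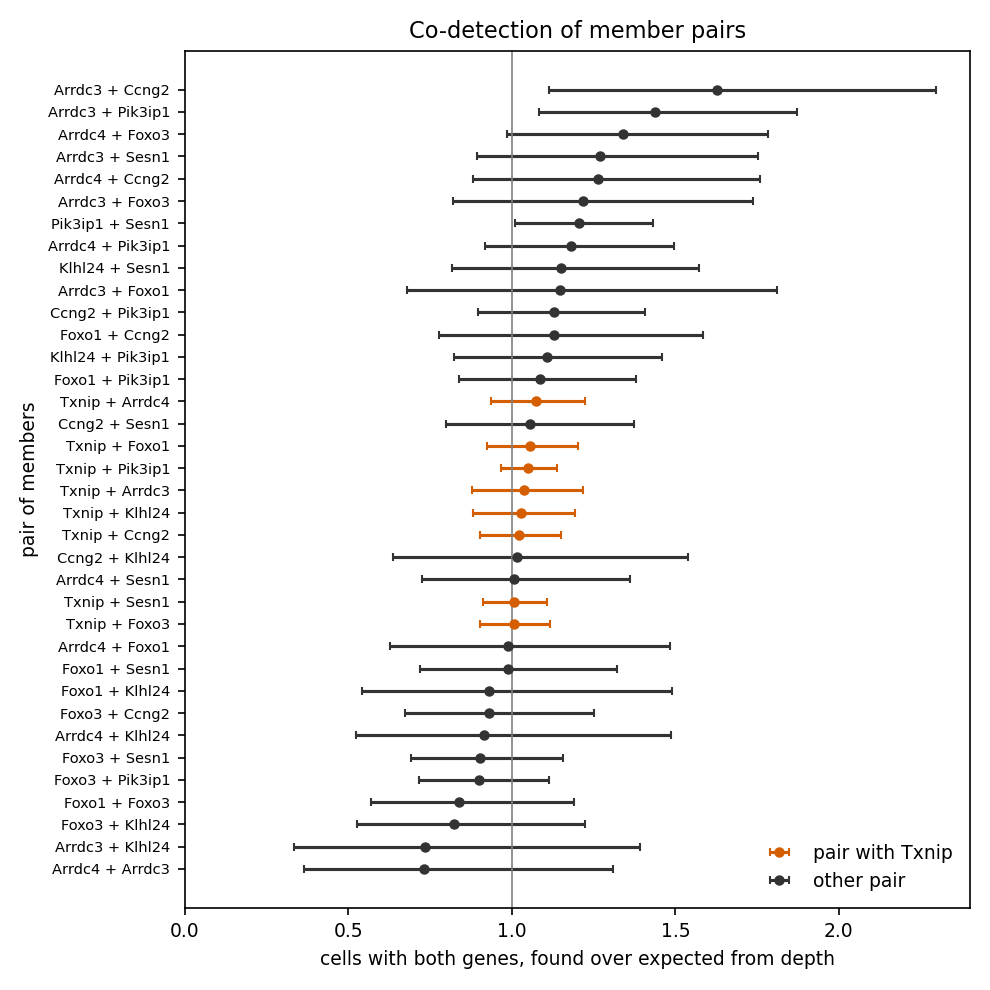
Cells with both genes over the number expected from depth (horizontal axis) for the 36 pairs (rows), with exact Poisson 95% intervals; pairs with Txnip are in orange. Arrdc3 with Ccng2 is highest, at 1.63, and every pair with Txnip lies between 1.01 and 1.07.

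GFP transcripts were found in 71 kept cells, which therefore come from Mds1-GFP/+ Flt3-Cre mice unless the UMI was free RNA, and not in 3331 cells. The study's design text counts 46 GFP cells after the authors' processing, without the filter behind that number, and says that the SLAM LT-HSCs were left out of their analysis. This comparison took part in the choice of the genes and supports nothing. Txnip was at 2680 CPM in aliquot 1 and 2150 CPM in aliquot 2 in cells with GFP, against 1795 and 1427 CPM in cells without, a ratio of 1.46 (1.30 to 1.64). Of the 8 genes with enough UMIs, 5 were above 1 and 3 reached 1.5-fold higher, beside 18.1% of 3428 measured genes that reached it and 57.8% above 1. The 3 were Arrdc4, Foxo1 and Arrdc3. Each met the minimum of 10 UMIs only by its observed UMIs in cells with GFP, not by the expected number. Their count was thus shaped by the filter and supports nothing.

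The outer ratios were Arrdc4 at 3.05 (1.92 to 4.62) and Foxo1 at 2.94 (1.85 to 4.45), each from 24 UMIs in cells with GFP, in 13 and 17 cells. Aliquot 1 held only 2 of the Arrdc4 UMIs and gave 1.40, while aliquot 2 gave 3.45; Foxo1 gave 4.25 and 2.63. Among cells with no S phase or G2/M UMI, the ratios were 2.30 for Arrdc4 and 2.77 for Foxo1. Within the 3 depth ranges Txnip was at 1.2, 1.89 and 1.48, Arrdc4 at 0.888 from 1 UMI, 5.46 and 2.72, and Foxo1 at 1.17 from 1 UMI, 4.28 and 2.70. Arrdc3 was at 1.60 from 10 UMIs and Pik3ip1 at 1.17, and the intervals of both included 1.
Foxo3 (0.952), Sesn1 (0.680) and Ccng2 (0.571) lay below 1 with intervals that included 1, and Klhl24 had only 6 UMIs. Immediate early genes were denser in cells with GFP, 4817 CPM against 2961 CPM, and the median depth was 1702 against 1412 UMIs. Their part was not tested.

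Immediate early transcripts, which respond to cell handling among other signals, gave a further split of the cells. In the 507 cells at or above the 90th percentile of that list after thinning, against 2895 other cells, all 9 genes were above 1 and 0 were called higher, beside 9.19% of 9251 measured genes called higher and 50.1% above 1. Txnip was at 2039 CPM in these cells and 1479 CPM in the others (1.38, 1.30 to 1.46). Foxo3 was at 133 and 94.5 CPM (1.40, 1.12 to 1.75), and Pik3ip1 at 221 and 162 CPM (1.36, 1.14 to 1.61). Arrdc4 was at 1.39 (1.03 to 1.85). Intervals of Arrdc3 (1.31), Ccng2 (1.26), Foxo1 (1.25), Sesn1 (1.22) and Klhl24 (1.17) included 1, and Foxo1 was at 0.866 in aliquot 1. The 507 cells held fewer S phase transcripts, 2026 CPM against 3639 CPM in the others. Their median depth was also lower, 1161 UMIs against 1452. The part of phase and that of depth were not tested.

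Other genes of the same pathways were read from lists chosen by function. Known FoxO targets outside the set were mostly below 1 in cycling cells. In G2/M cells 24 of 27 measured targets were below 1 and 15 were called lower, against 19.7% of all measured genes, with a median log2 ratio of -0.65 beside -0.04 over all measured genes. In S phase cells 22 of 28 were below 1 and 15 were called lower, against 14.8%, with a median of -0.62 beside -0.03.
Ypel3 was at 0.334 in G2/M cells and 0.492 in S phase cells. Gabarapl1, which serves autophagosomes, was at 0.447 and 0.593, Klf2, a transcription factor of resting lymphocytes, at 0.428 and 0.343, and S1pr1, a receptor for the lipid sphingosine-1-phosphate, at 0.470 and 0.485. Sod2, a mitochondrial superoxide dismutase, was at 0.571 in G2/M cells but 1.29 in S phase cells. Klf2 is also an immediate early gene.

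In cells with Procr, 19 of 24 measured FoxO targets were above 1 and 6 were called higher, against 11.2% of all measured genes, with a median of 0.33 beside 0.01 over all genes. Sesn3, a sestrin, was at 2.50 and S1pr1 at 2.30. In cells with GFP 11 of 16 were above 1 and 8 reached 1.5-fold, against 18.1%, with a median of 0.53 beside 0.10. A gene can meet the UMI filter through high counts in cells with GFP alone. As with the members, this GFP count therefore supports nothing. In the immediate early split, without Klf2 and Klf6, which belong to that list, 24 of 26 were above 1 and 9 were called higher, against 9.19%, with a median of 0.38 beside 0.00.

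The PI3K and AKT genes did not share one direction. Of 16 measured in G2/M cells 10 were above 1, beside 53.1% of all measured genes below 1, with a median log2 ratio of 0.20. There 1 was called higher, beside 16.3% of all measured genes, and 2 lower, beside 19.7%. Of 17 in S phase cells 7 were above 1, beside 52% of all measured genes below 1, with a median of -0.16. In S phase 0 were called higher, beside 14.3%, and 4 lower, beside 14.8%. Rheb, the activator of mTOR, was at 1.60 in G2/M cells and 1.33 in S phase cells, and Akt1 at 1.21 in both. Pik3r1, a regulatory subunit that restrains the PI3K catalytic subunit, was at 0.414 and 0.494. In cells with Procr 9 of 12 were above 1, beside 50.9% of all measured genes, and 1 was called higher, beside 11.2%, with a median of 0.19. In cells with GFP 5 of 10 were above 1, beside 57.8%, with a median of 0.04. There 2 reached 1.5-fold higher, beside 18.1%, and 3 reached 1.5-fold lower, for which the share over all genes was not taken.

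Partners of Txnip and MondoA went both ways. In G2/M cells 4 of 11 measured genes were above 1, 3 were called higher, against 16.3% of all measured genes, and 4 lower, against 19.7%, with a median log2 ratio of -0.25. In S phase cells 4 of 11 were above 1, 1 was called higher, against 14.3%, and 4 lower, against 14.8%, with a median of -0.35. Txn1, thioredoxin itself and the protein that Txnip binds, was at 2.04 in G2/M cells and 1.55 in S phase cells, and Prdx1, a peroxidase that thioredoxin recharges, at 1.73 and 1.50. A processed copy, Txn-ps1, is counted as a feature of its own, so the Txn1 value depends on how the reads were divided.
Mlx, the partner of MondoA, was at 0.440 and 0.463, Mlxip, which encodes MondoA, at 0.652 and 0.636, and the glucose transporter Slc2a3 at 0.501 and 0.622. In cells with Procr, Mlx was again low, at 0.475, and Txn1 was at 0.657. Of the alpha-arrestins outside the set only Arrdc1 was measured, at 0.883 in G2/M cells, 0.938 in S phase cells and 1.39 in cells with Procr. Of the FoxO and sestrin genes outside it, Foxo4 was at 0.510, 0.760 and 0.777 in the same comparisons, and Sesn3 at 1.33, 0.600 and 2.50.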

How the data were processed

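The authors deposited raw UMI counts per feature and droplet barcode for 2 inDrops libraries made from aliquots of 1 pool, with no normalization. Alignment and counting tools, per the submitters' processing notes, were RSEM 1.3.0, Bowtie 1.1.1 and SAMtools 1.3.1 on GRCm38; their settings, and how reads shared by near-identical copies were divided, are not given in the sources used here. Per the labels, GFP was counted against the loxP-IRES-GFP-polyA-loxP cassette; that feature was left out of all totals.

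From 10809 barcodes, 7372 under 500 UMIs and 35 over 20% mitochondrial UMIs were left out. The kept cells held 1640734 UMIs in aliquot 1 and 4027333 in aliquot 2. Doublets were not removed. For class calls each cell was thinned at random to 500 UMIs; levels used all UMIs. Levels have exact Poisson intervals, ratios exact conditional binomial intervals and shares Clopper-Pearson intervals, all at 95%. UMIs come in bursts and cells are not replicates, so these cover counting error only. The calculation was tested on simulated counts.

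All members were named in the phase, Procr, GFP and immediate early comparisons. Members of the pathway lists could be named where the smaller cell set had 10 UMIs or would be expected to. Members, lists and alternatives were chosen with earlier results of these data known. Positions come from GENCODE M21. Scripts ran in Python 3.11.15 with scipy 1.17.1, numpy 2.4.6, matplotlib 3.10.9 and pandas 2.3.3.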

Additional observations from a re-analysis of the deposited data

Results flagged for a closer look

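Barcodes under 500 UMIs enter none of the main comparisons. Some were used only beside the depth limit and in the settings with a minimum of 200 UMIs. Transcripts of the set were present in barcodes under 500 UMIs above the level that 3 counts allow, 3.58 CPM. Txnip stood at 1140 CPM in these barcodes, with 1819 CPM in aliquot 1 and 982 CPM in aliquot 2. Pik3ip1 stood at 158 CPM. Whether these UMIs come from small cells, broken cells or free RNA was not tested.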

How the results depend on the processing

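The limits are 1 pool, few UMIs for every gene but Txnip, and depth that differs between the cell sets. Of 504 values of member ratios under other settings, 438 moved by less than the counting error and the others moved further. Of the 504, 49 lay on the other side of 1, of which 41 belong to ratios whose own interval included 1 and 8 to ratios whose interval did not. Of 245 co-detection values 224 moved by less and 21 further, and of 40 shares 16 and 24. No paired analysis was possible because the aliquots are parts of 1 pool in 1 group.

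Txnip stayed below 1 in S phase cells and in G2/M cells, and above 1 with Procr and with GFP, under every setting run. In S phase cells its ratio was 0.533 with cells weighted equally, 0.536 with levels thinned to 500 UMIs, 0.553 with depth weighting, 0.401 and 0.658 with at least 3 and at least 1 list UMIs, 0.263 with the split made at full depth, 0.625, 0.567 and 0.430 in the 3 depth ranges and 0.517 as the median of 20 draws. The number of genes above 1 in S phase cells, 0 at first, was 1 with equal weights, 2 with thinned levels, 2 with depth weighting, 1 with at least 3 and 1 with at least 1 list UMIs, 4 and 1 in the 2 shallower depth ranges, and 0 to 2 in single aliquots.

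In G2/M cells Txnip was at 0.288 to 0.371 in single aliquots, 0.380 with equal weights, 0.426 with depth weighting, 0.307 and 0.431 with at least 3 and at least 1 list UMIs, 0.317 with another thinning draw, 0.496 and 0.438 in the 2 shallower depth ranges and 0.715 against S phase cells. The genes above 1 numbered 3 with depth weighting, 2, 3 and 2 in the depth ranges and 3 against S phase cells. In depth weighting, the deepest of 5 bins per aliquot held only 22 and 36 cells of neither phase. With Procr, Txnip was at 1.40 with equal weights, 1.39 with thinned levels, 1.31 with depth weighting and 1.28 in non-cycling cells, and with GFP at 1.65 with thinned levels. Its share of cells was 51.4% thinned, 80.0% from 1000 UMIs and 73.5 to 81.9% in single aliquots. Its co-detection ratio with Arrdc4 was 1.31 in thinned cells, taken without depth bins.

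Those 8 were Arrdc4 in S phase cells of 500 to under 1000 UMIs (1.17), and in G2/M cells Arrdc3 and Sesn1 with depth weighting (1.23 and 1.21), Foxo1 and Ccng2 at 500 to under 1000 UMIs (1.19 and 0.911), and Arrdc3 at 1000 to under 2000 UMIs (1.15) and against S phase cells (1.82). Sesn1 with Procr was at 0.990 in another draw. The cause was not tested. The depth ranges, S phase cells as comparison and the 20 draws were added after the data were seen.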
